A study of Mus musculus with 18 samples.

Results

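The genes described here encode ligands and receptors of the platelet-derived growth factor (PDGF) and fibroblast growth factor (FGF) families. They were taken by symbol from the deposited table of counts per gene, where 10 of 54532 genes matched: *Pdgfa*, *Pdgfb*, *Pdgfc*, *Pdgfd*, *Fgf2* and *Fgf7* among ligands, and *Pdgfra*, *Pdgfrb*, *Fgfr1* and *Fgfr2* among receptors. All 10 were among the 14317 genes that passed the filter on low counts, with 25 to 31850 counts in a library. The data are bulk RNA sequencing of 10T1/2 cells (labelled CH310T1/2, mesenchymal stem cells), a mouse fibroblast line able to turn into adipocytes or myofibroblasts. The 6 groups, of 3 libraries each, are WT, FOXS1 KO clone 1 and FOXS1 KO clone 2 cells, either uninduced (labelled Control) or given 1 nM TGF-β1 over 12 h and DMII over the next 48 h. DMII is the adipogenic mix of insulin, indomethacin, dexamethasone and 3-isobutyl-1-methylxanthine, and "stimulated" below means TGF-β1 + DMII. Each FOXS1 KO group is a clone grown from a single cell after CRISPR-Cas9 editing, so the knockout and other traits of that clone cannot be told apart. The labels do not say that the 3 libraries of a group came from separate cultures, and p-values therefore measure only the spread between these libraries.

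PDGF ligands act as dimers on the receptor tyrosine kinases PDGFRα and PDGFRβ, which drive growth and migration of mesenchymal cells. PDGF-A and PDGF-B are released in active form, whereas PDGF-C and PDGF-D are secreted with a blocking domain that proteases such as plasminogen activators remove. FGF2 and FGF7 bind heparan sulfate and signal through FGF receptors. FGF2 leaves the cell without a signal peptide and acts widely, while FGF7, the keratinocyte growth factor made by fibroblasts, acts mainly on the epithelial splice form of FGFR2. In fat tissue PDGFRα marks fibroblast-like adipocyte progenitors and PDGFRβ marks mural cells and progenitors.

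Library totals ran from 15576685 to 42005596 counts. *Foxs1* RNA was higher in the libraries labelled KO than in WT libraries. It was at 2.23 ± 0.886 and 2.51 ± 0.641 CPM in uninduced and stimulated WT cells. The values were 25.7 ± 2.04 and 54.5 ± 2.06 in clone 1 and 22.6 ± 1.44 and 39.9 ± 2.59 in clone 2 (mean ± SD, n = 3). CPM are counts relative to the library total after TMM scaling. A total per gene does not show the edit. The paper reports loss of FOXS1 protein in both clones by western blot, and a disrupted locus by genomic DNA sequencing. Below, "clone 1" and "clone 2" stand for the libraries labelled FOXS1 KO clone 1 and clone 2, and genotypes are taken from those labels. The fibroblast markers *Col1a1*, *Col1a2*, *Col3a1*, *Dcn*, *Lum* and *Thy1* were all detected, although *Thy1* averaged 0.616 and 0.342 CPM in uninduced and stimulated clone 2, against 49.0 or more in the other groups. *Lum* averaged 0.467 and 0.537 CPM in stimulated clones 1 and 2, against 10.4 in stimulated WT cells and 17.2 or more in uninduced groups. The defining leukocyte gene *Ptprc* had no count in any of the 18 libraries.

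The 10 transcripts spanned a wide range of levels. Compared per length as FPKM, *Pdgfrb* ranked at the top in all 6 groups, from 94.4 ± 3.87 in uninduced WT cells to 160 ± 2.60 in stimulated WT cells. In WT cells *Fgfr1* (61.2 ± 1.61 and 86.3 ± 2.51 FPKM) and *Pdgfra* (51.6 ± 1.62 and 73.0 ± 0.806) came next, ahead of *Fgf7* (25.4 ± 0.471 and 44.8 ± 1.17). In both clones *Fgf7* moved ahead of *Fgfr1* and *Pdgfra* under both conditions, at 85.6 ± 1.32 and 93.0 ± 1.36 FPKM in clone 1 and 67.6 ± 3.47 and 116 ± 1.08 in clone 2. In stimulated clones *Fgf2* followed *Fgfr1*, at 37.6 ± 0.661 and 33.3 ± 3.17 FPKM, although the clone 2 libraries overlapped those of *Pdgfra* (30.0 ± 1.08). *Pdgfb* was lowest in 3 groups, at 0.734 ± 0.242, 0.769 ± 0.0723 and 0.490 ± 0.159 FPKM in uninduced WT, stimulated WT and stimulated clone 1 cells. Its uninduced WT libraries overlapped those of *Pdgfc* (1.36 ± 0.337 FPKM), which in turn overlapped those of *Fgf2* (1.65 ± 0.333).

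To ask which ligands and receptors differed by genotype, each clone was compared with WT cells under each condition. A gene was called where edgeR's quasi-likelihood test gave a Benjamini-Hochberg adjusted p below 0.05 over all tested genes and the absolute log2 fold change exceeded 1. In uninduced cells, 5 of the 10 genes were called in clone 1 (15.1% of all tested genes were): *Pdgfb*, *Fgf2* and *Fgf7* were higher and *Pdgfra* and *Fgfr2* lower. In clone 2, 6 of 10 were called (15.1% of all tested genes), with *Pdgfd* also lower. Among stimulated cells 4 of 10 were called in clone 1 (19% of all tested genes), *Fgf2* and *Fgf7* being higher and *Pdgfc* and *Pdgfra* lower. In clone 2, 5 of 10 were called (16.9% of all tested genes), with *Fgfr2* lower as well. The WT libraries were shared by the comparisons of both clones, whose fold changes therefore share that error. Libraries that do not overlap, as described below for single genes, were common with 3 libraries in a group. Against WT this held for 55.7% and 55.2% of all tested genes in uninduced clones 1 and 2, and for 65.9% and 65.6% in stimulated ones. On stimulation of WT cells it held for 62%, and between stimulated clones for 54.6%. The median log2 fold change of the 10 genes lay between -0.272 and 0.101 in these comparisons, against -0.0165 to -0.00746 over all tested genes.

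Stimulation itself raised *Pdgfc* and *Fgf2* in all 3 genotypes. In WT cells 4 of 10 genes were called (19.9% of all tested genes), with *Pdgfd* and *Fgfr2* lower. In clone 1, 3 of 10 were called (16.7%), with *Pdgfb* lower, and in clone 2, 4 of 10 were called (17.7%), with *Pdgfb* and *Fgfr2* lower. The median log2 fold change of the 10 genes on stimulation was 0.498, 0.304 and 0.5 in WT, clone 1 and clone 2 cells, against -0.0361 to -0.0204 over all tested genes. The response itself differed from that of WT cells for 4 of 10 genes in clone 1 (8.81% of all tested genes) and 3 of 10 in clone 2 (7.85%), by the test of the difference between responses. In both clones *Fgf2* rose more and *Pdgfc* rose less than in WT cells, *Pdgfb* fell whereas its WT change was not called, and *Fgfr2* differed in clone 1. With library totals in place of TMM, the median of all genes on stimulation shifted by -0.221 to -0.293, and the same numbers of the 10 genes were called. A test against the fold threshold itself (glmTreat) did not call 8 of the differences named above or described later between the clones: *Pdgfb* on stimulation of clone 2, in the response of clone 2 and between stimulated clones, *Pdgfc* in the response of clone 2, *Pdgfd* between stimulated clones, *Fgf2* in the response of clone 1, *Fgf7* in stimulated clone 1 and *Fgfr2* in uninduced clone 1.

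**Figure D1:**
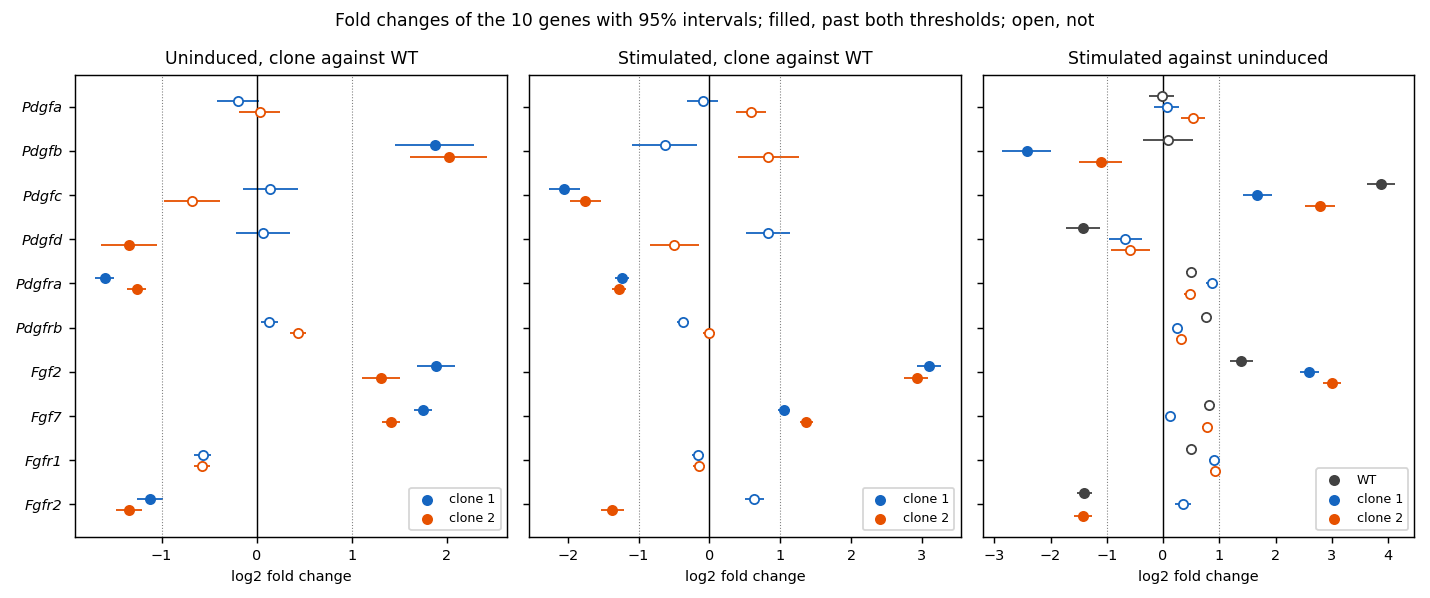
Log2 fold changes (x axis) of the 10 genes in each clone against WT in uninduced cells (left) and stimulated cells (middle), and on stimulation in each genotype (right), from the edgeR fit. Bars are 95% intervals, filled points passed both thresholds and dotted lines mark a log2 fold change of 1 either way; *Fgf2* and *Fgf7* lie to the right and *Pdgfra* to the left for both clones under both conditions.

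*Pdgfc*, which encodes the latent ligand PDGF-C, had the largest response of the 10 genes in WT cells. Its uninduced WT libraries were at 5.13, 8.55 and 7.05 CPM, and its stimulated WT libraries at 100, 98.9 and 106 CPM. This was a 14.6-fold rise (log2 fold change 3.87, SE 0.123, adjusted p = 2.29e-21). Clone 1 libraries went from 7.58, 8.21 and 7.25 CPM uninduced to 23.6, 25.9 and 23.9 stimulated, a 3.19-fold rise (log2 1.67, SE 0.125). Clone 2 libraries went from 5.13, 3.41 and 4.06 CPM to 28.8, 32.9 and 28.9, a 6.95-fold rise (log2 2.80, SE 0.130). Every stimulated clone library therefore lay below every stimulated WT library, while the uninduced WT libraries overlapped those of clone 1. Uninduced clone 2 cells were already at a log2 of -0.68 against WT (adjusted p = 2.37e-04), inside the fold threshold. Among stimulated cells *Pdgfc* was 4.15-fold lower in clone 1 (log2 -2.05, SE 0.107, adjusted p = 3.33e-16) and 3.37-fold lower in clone 2 (log2 -1.75, SE 0.107, adjusted p = 1.56e-14). The response was smaller than that of WT cells by 2.20 on the log2 scale in clone 1 (95% interval of the difference -2.56 to -1.83, adjusted p = 2.64e-11) and by 1.07 in clone 2 (-1.44 to -0.703, adjusted p = 2.25e-05). The clone 2 value rests partly on single uninduced libraries: it was -0.93 without WT replicate 1 and -0.85 without clone 2 replicate 1, both short of the fold threshold.

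*Pdgfb*, encoding PDGF-B, was expressed at low levels and fell on stimulation in the clones. Uninduced WT libraries held 2.68, 4.19 and 2.29 CPM, uninduced clone 1 libraries 9.68, 12.3 and 11.4, and uninduced clone 2 libraries 12.6, 11.7 and 12.8. All uninduced clone libraries thus lay above all WT libraries, 3.67-fold higher in clone 1 (log2 1.88, SE 0.202, adjusted p = 3.81e-09) and 4.08-fold higher in clone 2 (log2 2.03, SE 0.199, adjusted p = 6.14e-10). On chromosome 15, which holds *Pdgfb*, the 407 genes averaging 5 CPM or more lay above WT by a median log2 of 0.459 in clone 1 and 0.456 in clone 2, and the part of this shift in the result was not tested. After stimulation the libraries held 3.08, 3.54 and 2.98 CPM for WT, 1.33, 2.14 and 2.64 in clone 1 and 6.05, 6.08 and 4.99 in clone 2. The drop was 5.38-fold in clone 1 (log2 -2.43, SE 0.209, adjusted p = 3.02e-11) and 2.16-fold in clone 2 (log2 -1.11, SE 0.189, adjusted p = 9.66e-06), whereas the WT log2 change was 0.08 (SE 0.220, adjusted p = 0.761). In stimulated cells the clones fell on either side of WT, at log2 -0.63 (adjusted p = 0.0175) in clone 1 and 0.83 (adjusted p = 0.00118) in clone 2, both inside the fold threshold.

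*Pdgfd*, encoding the other latent ligand PDGF-D, went the opposite way from *Pdgfc* on stimulation of WT cells. Its WT libraries were at 13.1, 14.5 and 15 CPM uninduced and 4.30, 5.87 and 5.64 stimulated, with no overlap. The change was 2.69-fold (log2 -1.43, SE 0.147, adjusted p = 1.15e-09). The log2 change was -0.67 in clone 1 (adjusted p = 1.61e-04) and -0.58 in clone 2 (adjusted p = 0.00387), inside the fold threshold. Uninduced clone 2 libraries held only 5.64, 5.05 and 6.15 CPM, 2.54-fold below WT (log2 -1.34, SE 0.145, adjusted p = 3.96e-09), whereas clone 1 libraries at 16, 14.3 and 14.3 CPM overlapped those of WT.

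*Pdgfa*, encoding PDGF-A, stayed inside the fold threshold in all 11 comparisons, the largest log2 difference being -0.68 between stimulated clone 1 and clone 2 (adjusted p = 3.19e-06). Its means lay between 16.6 ± 0.514 CPM in uninduced clone 1 and 19.3 ± 1.12 in uninduced clone 2, apart from stimulated clone 2, where the libraries were at 30.8, 27.9 and 24.9 CPM. That was 1.5-fold above stimulated WT cells (log2 0.59, SE 0.105, adjusted p = 1.93e-05). The exons of *Pdgfa* share 26.1% of their bases with the antisense gene *6330403L08Rik*, whose group means were 7.65 to 14.8 CPM. Since the strand setting of the counting is not given, reads of the pair may not be told apart.

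**Figure D2:**
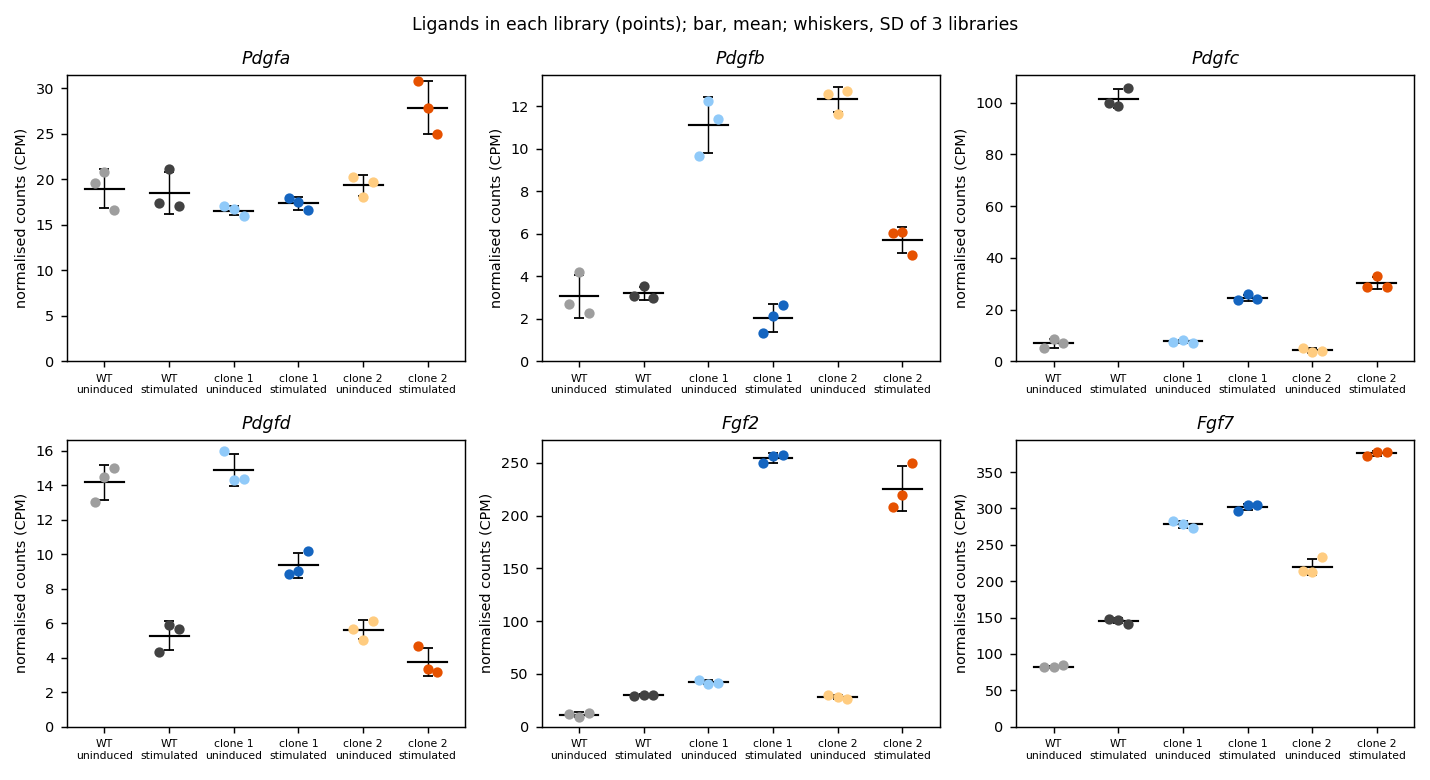
Normalised counts (CPM, linear y axes from 0) of the 6 ligands in each library, by group (x axis); points are libraries, bars the mean and whiskers the SD of 3 libraries. Stimulated WT libraries stand above all others for *Pdgfc*, stimulated clone libraries for *Fgf2*, and all clone libraries lie above all WT libraries for *Fgf7*.

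*Fgf2* differed most between genotypes among the 10 genes in stimulated cells. The libraries of uninduced cells held 12.1, 8.65 and 12.9 CPM in WT, 43.9, 40.3 and 41.7 in clone 1 and 29.7, 27.9 and 26.1 in clone 2. After stimulation they held 29.0, 30.3 and 29.9 CPM in WT, 250, 257 and 258 in clone 1 and 208, 219 and 250 in clone 2. No clone library overlapped a WT library of the same condition, which in each single comparison also held for 55.2% to 65.9% of all tested genes. Uninduced clone 2 libraries reached about the level of stimulated WT libraries. In uninduced cells *Fgf2* was 3.71-fold higher in clone 1 (log2 1.89, SE 0.0955, adjusted p = 2.52e-15) and 2.49-fold higher in clone 2 (log2 1.31, SE 0.0965, adjusted p = 6.42e-12). In stimulated cells the gap widened to 8.57-fold in clone 1 (log2 3.10, SE 0.0820, adjusted p = 8.04e-22) and 7.59-fold in clone 2 (log2 2.92, SE 0.0821, adjusted p = 3.57e-21). Stimulation raised *Fgf2* 2.63-fold in WT cells, 6.07-fold in clone 1 and 8.02-fold in clone 2. The response was thus larger than in WT cells by a log2 difference of 1.21 in clone 1 (95% interval 0.949 to 1.47, adjusted p = 1.53e-08) and 1.61 in clone 2 (1.35 to 1.87, adjusted p = 8.50e-11). The antisense gene *Nudt6* covers 9.44% of the exonic bases of *Fgf2*, and its group means, 1.03 to 4.14 CPM, were small beside those of *Fgf2* in the clones.

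*Fgf7* was higher in the clones under both conditions. Uninduced libraries were at 81.6, 81.4 and 84.1 CPM for WT, 282, 278 and 274 in clone 1 and 213, 213 and 233 in clone 2. Even uninduced clone cells thus exceeded stimulated WT cells, whose libraries were at 149, 147 and 141 CPM. The uninduced differences were 3.37-fold for clone 1 (log2 1.76, SE 0.0456, adjusted p = 1.66e-23) and 2.66-fold for clone 2 (log2 1.41, SE 0.0453, adjusted p = 2.92e-21). Stimulated clone 1 libraries at 297, 305 and 304 CPM were 2.07-fold above WT (log2 1.05, SE 0.0440, adjusted p = 1.06e-18), and stimulated clone 2 libraries at 372, 378 and 378 CPM were 2.58-fold above (log2 1.37, SE 0.0442, adjusted p = 2.21e-21). On stimulation the log2 change was 0.82 in WT cells and 0.78 in clone 2, but 0.12 in clone 1, where it turned to -0.12 with library totals in place of TMM. None of these 3 changes passed the fold threshold.

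*Pdgfra*, encoding the α receptor, whose ligands include PDGF-A and PDGF-C, was lower in both clones under both conditions. The uninduced libraries held 534, 515 and 502 CPM for WT, 172, 173 and 168 in clone 1 and 222, 209 and 218 in clone 2. The stimulated libraries held 726, 727 and 741 CPM for WT, 282, 319 and 330 in clone 1 and 292, 298 and 313 in clone 2. Every stimulated clone library lay below even the uninduced WT libraries. In uninduced cells the level was 3.03-fold lower in clone 1 (log2 -1.60, SE 0.05, adjusted p = 1.63e-21) and 2.39-fold lower in clone 2 (log2 -1.26, SE 0.0492, adjusted p = 3.73e-19). In stimulated cells it was 2.35-fold lower in clone 1 (log2 -1.24, SE 0.0489, adjusted p = 2.81e-19) and 2.43-fold lower in clone 2 (log2 -1.28, SE 0.0491, adjusted p = 1.43e-19). On stimulation *Pdgfra* changed by a log2 of 0.50, 0.86 and 0.48 in WT, clone 1 and clone 2 cells. Each change had an adjusted p of 1.33e-09 or less and lay inside the fold threshold. Chromosome 5, which holds *Pdgfra*, had 639 genes averaging 5 CPM or more. Their median log2 fold change against WT was -0.181 and -0.157 in uninduced clones 1 and 2, and -0.23 and -0.216 in stimulated ones. The part of this shift in the *Pdgfra* result was not tested.

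*Pdgfrb*, encoding the β receptor, whose ligands include PDGF-B and PDGF-D, stayed inside the fold threshold in all 11 comparisons. Its group means were 517 ± 21.2 and 875 ± 14.2 CPM in uninduced and stimulated WT cells, 568 ± 9.03 and 677 ± 17.6 in clone 1 and 700 ± 16.3 and 871 ± 39.4 in clone 2. In stimulated clone 2 the difference from WT was a log2 of -0.01 (95% interval -0.0913 to 0.0794), and in clone 1 it was -0.37 (SE 0.0418, adjusted p = 7.27e-09). The response to stimulation was smaller than that of WT cells by 0.51 on the log2 scale in clone 1 (adjusted p = 4.95e-08) and by 0.44 in clone 2 (adjusted p = 5.62e-07), inside the fold threshold.

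The balance between the PDGF receptors moved with *Pdgfra*. Within each library the ratio of *Pdgfra* to *Pdgfrb* FPKM was 0.547 and 0.457 in uninduced and stimulated WT cells, 0.164 and 0.250 in clone 1, and 0.169 and 0.189 in clone 2. The log2 ratios of the 3 libraries spanned -0.890 to -0.856 in uninduced WT cells and -1.17 to -1.10 in stimulated WT cells. All 12 clone libraries were lower, at -2.61 to -1.89. By share of summed PDGF receptor FPKM, *Pdgfra* made up 35.3% ± 0.275 and 31.4% ± 0.5 in WT cells, 14.1% ± 0.0557 uninduced and 18.9% to 21.2% stimulated in clone 1, and 14.5% ± 0.138 and 15.9% ± 1.06 in clone 2.

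The upstream sequence is shown for *Pdgfc* and *Pdgfra*, the PDGF genes that were lower in both stimulated clones. RefSeq (GRCm38.p6) gave sequence for 7 of the 10 genes, and each line holds the 250 bases before the annotated start on the plus strand, at chr3:81036166-81036415 for *Pdgfc* and chr5:75152001-75152250 for *Pdgfra*. Neither window overlapped an exon of the GENCODE M21 annotation. Capitals mark the only match to the motifs searched.
*Pdgfc*: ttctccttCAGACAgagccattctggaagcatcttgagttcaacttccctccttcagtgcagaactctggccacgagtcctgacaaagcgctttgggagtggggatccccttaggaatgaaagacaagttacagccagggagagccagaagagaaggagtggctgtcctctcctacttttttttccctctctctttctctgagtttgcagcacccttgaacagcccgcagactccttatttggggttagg
*Pdgfra*: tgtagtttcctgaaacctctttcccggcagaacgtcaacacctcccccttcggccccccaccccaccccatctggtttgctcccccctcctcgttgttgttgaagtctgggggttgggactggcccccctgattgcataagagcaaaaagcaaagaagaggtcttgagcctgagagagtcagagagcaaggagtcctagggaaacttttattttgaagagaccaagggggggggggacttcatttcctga
The search covered both strands for a forkhead motif (TGTTTAC), a SMAD motif (CAGACA), a GC box (GGGCGG), an AP-1 site (TGANTCA), a cAMP response element (TGACGTCA), a glucocorticoid receptor half-site (AGAACA) and a TATA box (TATAAA). The capitals in *Pdgfc* are the SMAD motif, which 17.1% of the 32851 upstream windows in the table also held. The *Pdgfra* window held none of the 7 motifs. Over all windows the shares were 3.17% for forkhead, 32.7% for the GC box, 6.75% for AP-1, 1.55% for the cAMP response element, 16.1% for the glucocorticoid receptor half-site and 12.4% for the TATA box. The windows of *Fgf2* and *Pdgfa* held a GC box and that of *Pdgfd* a TATA box. A match of letters is not evidence of binding.

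*Fgfr1*, with a higher mean FPKM than *Fgfr2* in every group, was lower in uninduced clones and close to WT after stimulation. Its group means were 604 ± 15.9 and 852 ± 24.8 CPM for WT, 408 ± 14.0 and 760 ± 25.3 in clone 1 and 405 ± 9.43 and 769 ± 18.9 in clone 2. The log2 difference from WT was -0.57 and -0.58 in uninduced clones 1 and 2 (adjusted p = 1.27e-12 and 7.54e-13) and -0.16 and -0.15 in stimulated ones (adjusted p = 0.00106 and 0.00336), all inside the fold threshold.

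*Fgfr2*, which encodes the receptor family that includes the FGF7 receptor, behaved differently in the 2 clones. Its uninduced libraries held 103, 104 and 98.9 CPM for WT, 45.7, 50.3 and 44.1 in clone 1 and 41.0, 39.4 and 39.5 in clone 2. Both clones were therefore below WT, 2.18-fold in clone 1 (log2 -1.12, SE 0.0673, adjusted p = 1.13e-14) and 2.54-fold in clone 2 (log2 -1.35, SE 0.0672, adjusted p = 1.35e-16). After stimulation the libraries held 37.0, 41.2 and 37.1 CPM for WT, 55.4, 61.9 and 61.6 in clone 1 and 14.1, 15.8 and 14.7 in clone 2. The 3 genotypes did not overlap, with clone 1 above and clone 2 below WT. The clone 1 difference from WT was a log2 of 0.635 (adjusted p = 2.73e-09), inside the fold threshold. That of clone 2 was called, at -1.37 (adjusted p = 2.11e-15). Stimulation lowered *Fgfr2* 2.64-fold in WT cells (log2 -1.40, SE 0.0678, adjusted p = 3.63e-17) and 2.70-fold in clone 2 (log2 -1.43, SE 0.0775, adjusted p = 5.90e-16), while clone 1 changed by a log2 of 0.36 (SE 0.0679, adjusted p = 5.14e-05). The change in clone 1 minus that in WT cells was a log2 of 1.76 (95% interval 1.56 to 1.95, adjusted p = 3.40e-15). That of clone 2 differed by -0.03 (95% interval -0.240 to 0.182, adjusted p = 0.884). Stimulated clone 1 was 4.02-fold above stimulated clone 2 (log2 2.01, SE 0.0767, adjusted p = 6.84e-19). Counts per gene do not separate the splice forms of the receptor. *Ctbp2*, on the same strand, shares 3.04% of the exonic bases of *Fgfr2*, and its group means stayed between 30.7 and 38.2 CPM.

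**Figure D3:**
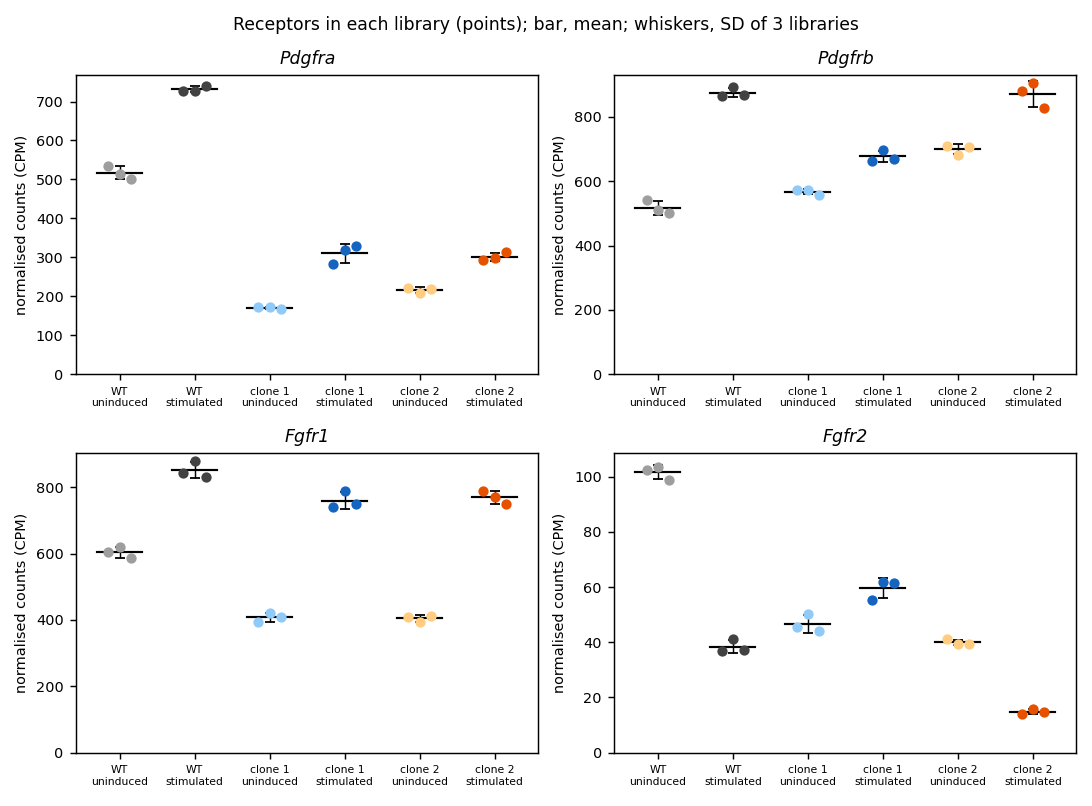
Normalised counts (CPM, linear y axes from 0) of the 4 receptors in each library, by group (x axis); points are libraries, bars the mean and whiskers the SD of 3 libraries. All clone libraries lie below all WT libraries for *Pdgfra*, and stimulated clone 1 lies above stimulated WT and clone 2 for *Fgfr2*.

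The make-up of each family changed with these levels. *Pdgfa* and *Pdgfd* held 48.0% ± 3.89 and 35.6% ± 3.54 of the summed PDGF ligand FPKM of uninduced WT cells, and *Pdgfc* 10.6% ± 2.01. After stimulation *Pdgfc* held 70.5% ± 2.86 in WT cells but 34.8% ± 1.18 in clone 1 and 34.2% ± 3.02 in clone 2, where *Pdgfa* was the larger share at 40.2% ± 2.15 and 51.2% ± 1.94. *Pdgfb* made up 5.72% ± 1.37 of the PDGF ligand FPKM of uninduced WT cells against 18.8% ± 2.26 and 25.2% ± 0.596 in uninduced clones 1 and 2. Of the summed *Fgf2* and *Fgf7* FPKM, *Fgf2* held 5.75% to 8.90% on average in WT cells and uninduced clones, but 28.8% ± 0.0888 in stimulated clone 1 and 22.3% ± 1.51 in stimulated clone 2. The ratio of *Fgfr1* to *Fgfr2* FPKM rose from 6.21 to 23.2 on stimulation in WT cells, from 9.15 to 13.3 in clone 1 and from 10.6 to 54.2 in clone 2, with no overlap between the 3 genotypes under stimulation. Shares within a family sum to a fixed total, so a rise of one member lowers the others.

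**Figure D4:**
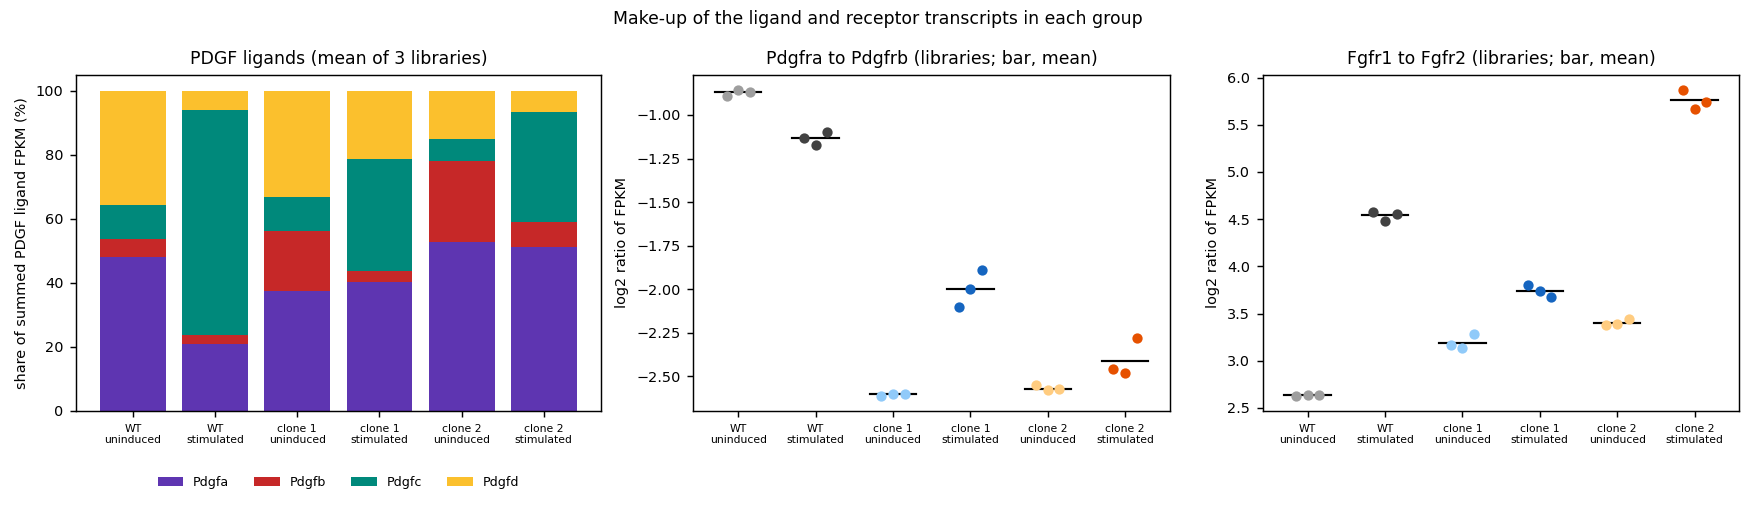
Left, mean share (%, bars from 0) of each PDGF ligand in the summed PDGF ligand FPKM of a group; middle and right, log2 ratios of FPKM (y axes not from 0) of *Pdgfra* to *Pdgfrb* and of *Fgfr1* to *Fgfr2* in each library (points) with group means (bars). *Pdgfc* takes 70.5% of the summed PDGF ligand FPKM in stimulated WT cells, and every clone library has a lower *Pdgfra* to *Pdgfrb* ratio than every WT library.

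The clones were also compared with each other. In uninduced cells 1 of 10 genes was called, *Pdgfd* being 2.66-fold higher in clone 1 (log2 1.41, SE 0.145, adjusted p = 2.88e-09), against 8.67% of all tested genes. In stimulated cells 3 of 10 were called (9.98% of all tested genes). *Pdgfd* was 2.5-fold higher in clone 1, *Fgfr2* was higher as given above, and *Pdgfb* was 2.76-fold lower (log2 -1.47, SE 0.220, adjusted p = 2.18e-06). For *Fgf2*, *Pdgfra* and *Fgfr1* the stimulated clones differed by log2 0.18 (95% interval 0.0273 to 0.325), 0.05 (-0.0540 to 0.146) and -0.02 (-0.103 to 0.0667). Markers of other cell types also differed between groups. The sum of the 5 adipocyte markers, *Fabp4*, *Plin1*, *Cidec*, *Adipoq* and *Lep*, was 30.5 to 43.0 CPM in stimulated clone 1 and at most 4.64 in any other library. In stimulated clone 1 *Fabp4*, *Plin1* and *Cidec* averaged 20.4, 7.78 and 7.56 CPM. *Adipoq* averaged only 0.207 CPM there, below uninduced WT (0.596) and uninduced clone 2 (0.954). It was at 0 in stimulated WT cells and 0.115 in stimulated clone 2. *Lep* was at 0 in all 18 libraries. *Acta2*, the smooth muscle actin of myofibroblasts, averaged 2040 CPM in stimulated WT cells and 308 and 323 in stimulated clones 1 and 2, whereas the smooth muscle markers *Tagln*, *Cnn1* and *Myh11* reached at most 1.46 CPM in any library. In bulk samples, fewer cells of a type and less RNA per cell cannot be told apart, and the part of these markers in the ligand and receptor levels was not tested.

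Other genes of the pathways were taken from fixed lists. Of 16 other secreted FGF ligands only *Fgf18*, *Fgf10* and *Fgf21* passed the filter on low counts. *Fgf18*, a ligand acting mainly on mesenchymal splice forms of FGF receptors, rose from 3.20 ± 0.263 to 27.9 ± 2.33 CPM on stimulation of WT cells (adjusted p = 5.12e-13). It was at 0.159 ± 0.161 and 0.126 ± 0.134 CPM in uninduced and stimulated clone 1 and at 0.101 ± 0.0502 and 0.0187 ± 0.0323 in clone 2, lower than WT in all 4 comparisons (adjusted p = 5.86e-10 or less). *Fgf21*, named after its values were seen, had no count in uninduced WT cells, 1.06 ± 0.138 CPM in stimulated ones, and 0.230 ± 0.200 and 0.0778 ± 0.0847 in stimulated clones 1 and 2 (adjusted p = 0.00971 and 9.59e-04). *Fgf10*, a ligand of the FGF7 receptor, fell on stimulation in all 3 genotypes, from 12.9 ± 2.64 to 1.76 ± 0.432 CPM in WT cells. Of 7 other receptors, co-receptors and carriers 3 were tested. *Fgfrl1*, named after its values were seen, averaged 254 and 463 CPM in uninduced and stimulated WT cells. The averages were 272 and 727 CPM in clone 1 and 232 and 618 in clone 2. On stimulation *Fgfrl1* was called higher in both clones (log2 1.42 and 1.41) but not in WT cells (0.865). Its level was not compared per length with that of *Fgfr1*. The receptor gene *Fgfr3* fell from 14.3 ± 1.31 to 1.48 ± 0.230 CPM on stimulation of WT cells (log2 -3.26) and was lower in uninduced clone 1 (4.10 ± 0.455) and clone 2 (5.68 ± 0.544).

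Among 6 genes for PDGF activation and co-receptors, 5 were tested. In stimulated cells 2 of these, the plasminogen activator genes *Plau* and *Plat*, were called lower in both clones (9.6% and 8.94% of all tested genes were lower in clones 1 and 2). Both were already called lower in uninduced clone 2 (log2 -1.17 for *Plau* and -1.74 for *Plat*), but not in uninduced clone 1. *Plat*, encoding tissue plasminogen activator, which cleaves PDGF-C, rose from 16.9 ± 1.87 to 123 ± 4.51 CPM in WT cells, but reached 30.4 ± 2.65 in stimulated clone 1 (log2 -2.02 against WT, adjusted p = 9.61e-18) and 15.1 ± 1.78 in clone 2 (log2 -3.03, adjusted p = 4.14e-21). Its response was smaller in both clones, by 1.72 and 1.29 on the log2 scale (adjusted p = 2.64e-11 and 7.90e-08). *Plau*, encoding urokinase, which cleaves PDGF-D, was at 16 ± 1.79 CPM in stimulated WT cells, 1.00 ± 0.411 in clone 1 and 1.73 ± 0.370 in clone 2.

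All 17 heparan sulfate genes were tested. The numbers called against WT were 2 and 4 in uninduced clones 1 and 2 (15.1% and 15.1% of all tested genes were called) and 1 and 2 in stimulated ones (19% and 16.9% of all tested genes). *Sulf1*, an extracellular sulfatase that trims heparan sulfate, was lower throughout, at 126 ± 6.04 and 315 ± 4.91 CPM in uninduced and stimulated WT cells, 13.7 ± 1.25 and 37.2 ± 2.98 in clone 1 and 8.65 ± 0.254 and 39.8 ± 2.89 in clone 2. The related *Sulf2* was lower in uninduced clones, at 372 ± 7.64 CPM for WT, 98.6 ± 3.16 in clone 1 and 157 ± 11.8 in clone 2, and was not called in stimulated ones (log2 0.36 and 0.46). *Ext1*, a heparan sulfate polymerase, rose 1.23 on the log2 scale on stimulation of WT cells.

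Of the 23 genes that relay the receptor signal, 1 was called in WT cells on stimulation, against 19.9% of all tested genes. Compared with WT, 1 and 2 were called in uninduced clones 1 and 2 (15.1% and 15.1% of all tested genes) and 2 and 1 in stimulated ones (19% and 16.9%). *Pik3r1*, the regulatory subunit of PI3-kinase, was higher in both clones under both conditions, at 98.5 ± 15.4 and 107 ± 6.47 CPM for WT, 384 ± 0.409 and 537 ± 62.0 in clone 1 and 212 ± 13.7 and 321 ± 13 in clone 2. *Mapk3*, encoding the kinase ERK1, fell by 1.06 on the log2 scale on stimulation of WT cells.

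The 13 feedback inhibitors, which damp signalling below these receptors, were called lower more often than higher in uninduced clones. In stimulated clones the calls went both ways. In uninduced clone 1, 0 were higher and 6 lower than in WT cells (6.32% and 8.73% of all tested genes), and in uninduced clone 2, 1 was higher and 5 lower (5.54% and 9.56%), with median log2 fold changes of -0.682 and -0.449. In stimulated clone 1, 2 were higher and 2 lower (9.42% and 9.6% of all tested genes), and in stimulated clone 2, 3 were higher and 2 lower (7.95% and 8.94%), with medians of 0.219 and 0.389. *Dusp4*, a phosphatase for ERK, went from 2.62 ± 0.523 to 4.49 ± 1.00 CPM in WT cells but from 3.24 ± 0.253 to 31.1 ± 3.10 in clone 1 and from 4.39 ± 0.470 to 36.8 ± 4.57 in clone 2. *Dusp5*, another phosphatase for ERK, fell in WT cells (25.1 ± 4.02 to 12.2 ± 1.27 CPM) and rose in clone 1 (12.4 ± 1.57 to 26.4 ± 2.14) and clone 2 (7.60 ± 0.0729 to 50.8 ± 2.46). The log2 change in each clone minus that in WT cells was 2.52 and 2.33 for *Dusp4* (adjusted p = 1.20e-09 and 3.19e-09) and 2.13 and 3.78 for *Dusp5* (adjusted p = 4.60e-12 and 1.58e-17). *Il17rd*, which encodes the FGF antagonist Sef, was lower in the clones, at 50.5 ± 3.14 and 11.1 ± 0.808 CPM for WT, 10.8 ± 0.499 and 1.39 ± 0.332 in clone 1 and 11 ± 1.76 and 1.76 ± 0.559 in clone 2.

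Among 10 ETS factors and immediate target genes of ERK, 1 was higher and 4 lower in uninduced clone 1 (6.32% and 8.73% of all tested genes) and 0 were higher and 3 lower in uninduced clone 2 (5.54% and 9.56%). In stimulated cells 0 were higher and 3 lower in clone 1 (9.42% and 9.6%) and 2 were higher and 1 lower in clone 2 (7.95% and 8.94%). *Etv4*, an ETS factor induced by FGF signalling, rose from 3.48 ± 2.08 to 17.5 ± 0.242 CPM in WT cells and was at 0.858 ± 0.215 and 3.00 ± 0.223 in stimulated clones 1 and 2. *Myc* rose in all 3 genotypes, from 35.4 ± 2.14 to 124 ± 9.20 CPM in WT cells. *Fos* fell in all 3, in WT cells from 285 ± 25.2 to 64.1 ± 13.4 CPM (log2 -2.15). The log2 change of *Fos* was -1.34 in clone 2 and -0.991 in clone 1, the latter just inside the fold threshold (adjusted p = 7.63e-06).

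The transcripts whose log2 CPM followed each gene most closely over the 18 libraries were sought among 10059 genes. For *Fgf2* the closest was *Col4a1*, a basement membrane collagen (Pearson r = 0.988). For *Fgfr1* it was *Lamb1*, a laminin chain (r = 0.989). For *Pdgfra* it was *Angptl4*, a lipoprotein lipase inhibitor (r = 0.982), and for *Pdgfc* it was *Mogs*, a glucosidase of glycoprotein processing (r = 0.986). These libraries form 6 groups and share their scaling, so the correlations are descriptions of likeness across groups.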

How the data were processed

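The data are the authors' deposited counts per gene. Per the labels and methods, the authors aligned 150 bp paired reads of poly(A) RNA to mm10 (GRCm38) with HISAT2. What counted the reads, over which annotation release and with what strand setting is not stated in the sources. All count columns were mapped to the 18 libraries. The members and gene lists were chosen with earlier results of these data known.

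Genes were kept by filterByExpr, run by group with a minimum count of 10, then scaled with TMM and fitted in edgeR 4.0.16 (R 4.3.3, limma 3.58.1) with 1 mean for each of the 6 groups over all 18 libraries (glmQLFit, robust, glmQLFTest). The p-values were adjusted by Benjamini-Hochberg over 14317 genes, two-sided. The fold threshold (absolute log2 fold change above 1) and adjusted p (0.05) follow the study. The DESeq2 1.42.0 Wald test was an alternative. CPM and FPKM used TMM-scaled totals and the deposited gene lengths. Intervals are 95%, and those for counts cover counting and replicate error as fitted. Libraries within a group differed beyond sampling noise (chi-square per gene 3.13 to 14.6 over 18 pairs). The steps were tested on simulated data. Overlaps came from GENCODE M21, upstream sequence from RefSeq (GRCm38.p6, 250 bases before the start).

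Besides the 10 members, the rule named at most 3 genes of a pathway list with a mean of at least 1 CPM, those called alike in both stimulated clones, with the clones' smaller fold change deciding the order, then those called on stimulation of WT cells. Genes most like a member needed a mean of 5 CPM. A gene of the PDGF activation list that the rule named is not reported here. Where a count of called genes was small, *Fgf21* was added after its values were seen. *Fgfrl1* was also added after its values were seen. Other settings tried were DESeq2 size factors, library totals (added after the data were seen), no filter, a filter of 1 CPM in 3 libraries, only the groups compared, no fold threshold, glmTreat, leaving out each library and blocking on replicate number.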

Additional observations from a re-analysis of the deposited data

Results flagged for a closer look

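The response to stimulation was compared between each clone and WT cells by a test of the difference itself in the edgeR model. It differed for 4 of the 10 genes in clone 1 (8.81% of all tested genes) and 3 in clone 2 (7.85%). *Pdgfb* fell on stimulation in both clones, and its log2 change minus that of WT cells was -2.51 in clone 1 and -1.20 in clone 2, where all uninduced clone libraries began above WT. *Pdgfc* rose less, with differences of -2.20 in clone 1 and -1.07 in clone 2. *Fgf2* rose more, by 1.21 in clone 1 and 1.61 in clone 2. *Fgfr2* responded differently in clone 1, by 1.76, whereas the same difference in clone 2 was -0.03 (95% interval -0.240 to 0.182). Both clones were set against the same WT libraries, so these values share that error. Of the 10 genes, none was named for a sample far from the others, since groups of 3 libraries are too small for such a test.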

How the results depend on the processing

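Over 11 comparisons, the number of the 10 genes called stayed within 1.5 times under DESeq2 size factors, library totals, both other filters, the DESeq2 Wald test and a fit of only the groups compared. The replicate number as a block left each of the 11 counts as it was, at 5, 6, 4 and 5 for the clones against WT (clones 1 and 2 uninduced, then stimulated), 4, 3 and 4 for stimulation, 4 and 3 for the differences in response and 1 and 3 between the clones. Same-numbered libraries showed no shared deviation (r -0.0412 to 0.0498 over 45 pairs). The labels do not say whether the numbers mark paired cultures, and these correlations cannot decide it. Without a fold threshold, stimulated clones 1 and 2 had 9 and 9 genes past the test against WT, stimulation had 8, 9 and 10 in WT, clone 1 and clone 2 cells, the differences in response 9 and 7, and the clones against each other 7 uninduced and 8 stimulated; by that rule 31.2% to 60.7% of all tested genes passed. When the fold change itself was tested against the threshold (glmTreat), 1 gene was left for the response of clone 2 and 1 between stimulated clones. Leaving out a library gave 1 to 2 calls between uninduced clones, *Pdgfc* passing at log2 1.05 without clone 2 replicate 1, and 2 to 3 for the response of clone 2.

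Signs turned only for differences that were not called. With library totals they were *Pdgfa* in uninduced clone 2 against WT (log2 -0.0053) and on stimulation of clone 1 (-0.175), *Pdgfb* on stimulation of WT cells (-0.136), *Fgf7* on stimulation of clone 1 (-0.121) and *Fgfr1* between stimulated clones (0.067). Without a filter they were *Pdgfa* on stimulation of WT cells (0.014) and *Fgfr1* between uninduced clones (-0.0095) and stimulated clones (0.0053). With a library left out, *Pdgfa* ranged from -0.054 to 0.111 (uninduced clone 2 against WT), -0.152 to 0.016 (stimulated clone 1 against WT) and -0.121 to 0.048 (stimulation of WT cells), and *Pdgfb* on stimulation of WT cells from -0.106 to 0.383. *Pdgfc* ranged from -0.011 to 0.307 (uninduced clone 1 against WT), *Pdgfrb* from -0.035 to 0.032 (stimulated clone 2 against WT), *Fgfr1* from -0.015 to 0.035 between uninduced and -0.047 to 0.0014 between stimulated clones, and *Fgfr2* from -0.080 to 0.023 (response of clone 2 minus WT). The cause of these sign changes was not tested.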
